A study of Mus musculus with 9 samples.

Results

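The centromere is the chromosomal site that spindle fibres pull on in mitosis, and the kinetochore is the protein machine built on it. The 38 genes described here encode centromere, kinetochore and chromosomal passenger proteins. They were listed by name for their known role, with earlier results of these data known. Each was looked up among the 24062 gene symbols of the deposited count table. Of these 38, 37 stood under the listed symbol, and Sgol2a was read from the row of its synonym Sgol2. All 38 passed the filter on low counts that left 14223 genes, with 57 to 11410 counts per library, so every count below is over all 38.

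The cells were mouse embryonic fibroblasts (MEFs) of the C57BL/6 strain, labelled non-senescent and harvested on day 4 after lentiviral infection. The control group carried an empty vector, the p21 group a vector for p21 (encoded by Cdkn1a) and the p16 group a vector for p16 (encoded by Cdkn2a), with 3 libraries each. Both proteins inhibit cyclin-dependent kinases, p16 those partnered by D-type cyclins and p21 a wider set. All 3 groups shared the strain, the cell type and the virus type, and the promoter of the vectors is not given in the sources used here. The record numbers of the p16 samples do not follow on from those of the control and p21 samples. Whether the p16 libraries were prepared apart was not tested. The labels do not say that the replicates came from separate cultures or embryos, so p-values measure the spread between these samples. Replicate 3 held Xist that replicates 1 and 2 nearly lacked (below), a difference between cell sources. The spread between replicates 1 and 2 may be technical.

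Library totals ran from 44455730 to 63152239 counts. Cdkn1a reached 1605 ± 172 CPM (counts scaled to TMM-adjusted library totals, ± SD, n = 3) with p21 against 360 ± 12.8 CPM in the controls. Cdkn2a reached 1731 ± 179 CPM with p16 against 37.9 ± 3.86 CPM in the controls. It was also higher with p21, at 46.5 ± 2.21 CPM (log2 fold change 0.29, edgeR adjusted p = 0.0111). The delivered genes rose unequally, by log2 fold changes of 2.16 (Cdkn1a with p21) and 5.51 (Cdkn2a with p16). The part of this in p21 against p16 was not tested. Each replicate 3 library stood apart on the second principal component (18.9% of the variance) and held Xist at 181 to 251 CPM against at most 6.96 CPM elsewhere. Of 12 fibroblast markers, Col1a1, Col1a2, Col3a1, Fn1, Vim, Thy1, Pdgfrb and Postn stood at 202 CPM or more, Pdgfra at 13.8 to 36.1 CPM, while Dcn, Lum and Fap stayed under 5 CPM in each library. Summed over 10 leukocyte markers, the level lay between 25.3 and 37.6 CPM in the control libraries. The p21 libraries lay between 39.2 and 52.1 CPM and the p16 libraries between 30.4 and 52.8 CPM. Unlike the other CPM values here, these sums used library totals without TMM adjustment. None of these 10 markers was at 0 in any library, and the pan-leukocyte marker Ptprc stood at 0.257 to 0.909 CPM. Of the 10, 4 were higher with p21 by edgeR, as were 19.8% of all tested genes. Of 4 epithelial markers tested, 2 (Krt18 and Cldn4) were also higher with p21, and of 5 endothelial markers tested, 0. The part of these markers in the results was not tested.

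As background, a centromere is marked by nucleosomes that hold the histone variant CENP-A in place of histone H3. A constitutive set of CENP proteins binds that chromatin throughout the cell cycle, and in mitosis it recruits the outer kinetochore, whose NDC80 complex grips the microtubules. The chromosomal passenger complex corrects wrong attachments, and shugoshins protect the cohesion between sister chromatids. Transcripts of many of these genes are known to rise as cycling cells, fibroblasts included, approach mitosis. In bulk RNA, fewer dividing cells and less RNA per dividing cell cannot be told apart.

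The p21 libraries held less of nearly every one of these transcripts. Against the empty vector 37 of the 38 fell and 1, Zwint, rose, where 20.1% of all tested genes were called lower and 19.8% higher. The median log2 fold change of the 38 was -0.82, against 0.00 over all tested genes. With p16, 19 of 38 fell and 0 rose, where 5.56% of tested genes were called lower and 5.8% higher. The 38 had a median of -0.27, and DESeq2 and limma-voom also called 0 of them higher. At an unadjusted edgeR p under 0.05, 27 of the 38 were lower and 1 higher with p16, where 12.7% of tested genes were lower and 13.6% higher. In the direct comparison 32 of 38 were lower with p21 than with p16 and 0 were higher, against 6.91% of tested genes called lower and 6.15% higher, with a median of -0.54. At the unadjusted threshold 35 were lower and 0 higher, against 14.2% and 13.3% of tested genes, and DESeq2 and limma-voom also called 0 higher. These calls are from edgeR's quasi-likelihood test at a Benjamini-Hochberg adjusted p under 0.05 over all tested genes. That fit left out the pairing by replicate number. With the replicate number as a block, 37 of the 38 were lower with p21, 22 with p16 and 35 in p21 against p16. The counts higher were then 1, 0 and 0, and over all tested genes 6856, 3044 and 3214 were called. Both comparisons against the empty vector share the same 3 control libraries.

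The 38 genes together took 0.128% to 0.132% of all counts in the controls, 0.109% to 0.112% with p16 and 0.0831% to 0.0888% with p21. These shares did not overlap between groups. For 27 of the 38 genes the 3 groups were separated library by library, every control above every p16 library and every p16 library above every p21 library. The same held for 7.71% of tested genes. The separation was incomplete for Cenpb, Cenpc1, Cenph, Cenpj, Cenpl, Cenpo, Cenpt, Cenpw, Mis12, Ska2 and Zwint.

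**Figure D1:**
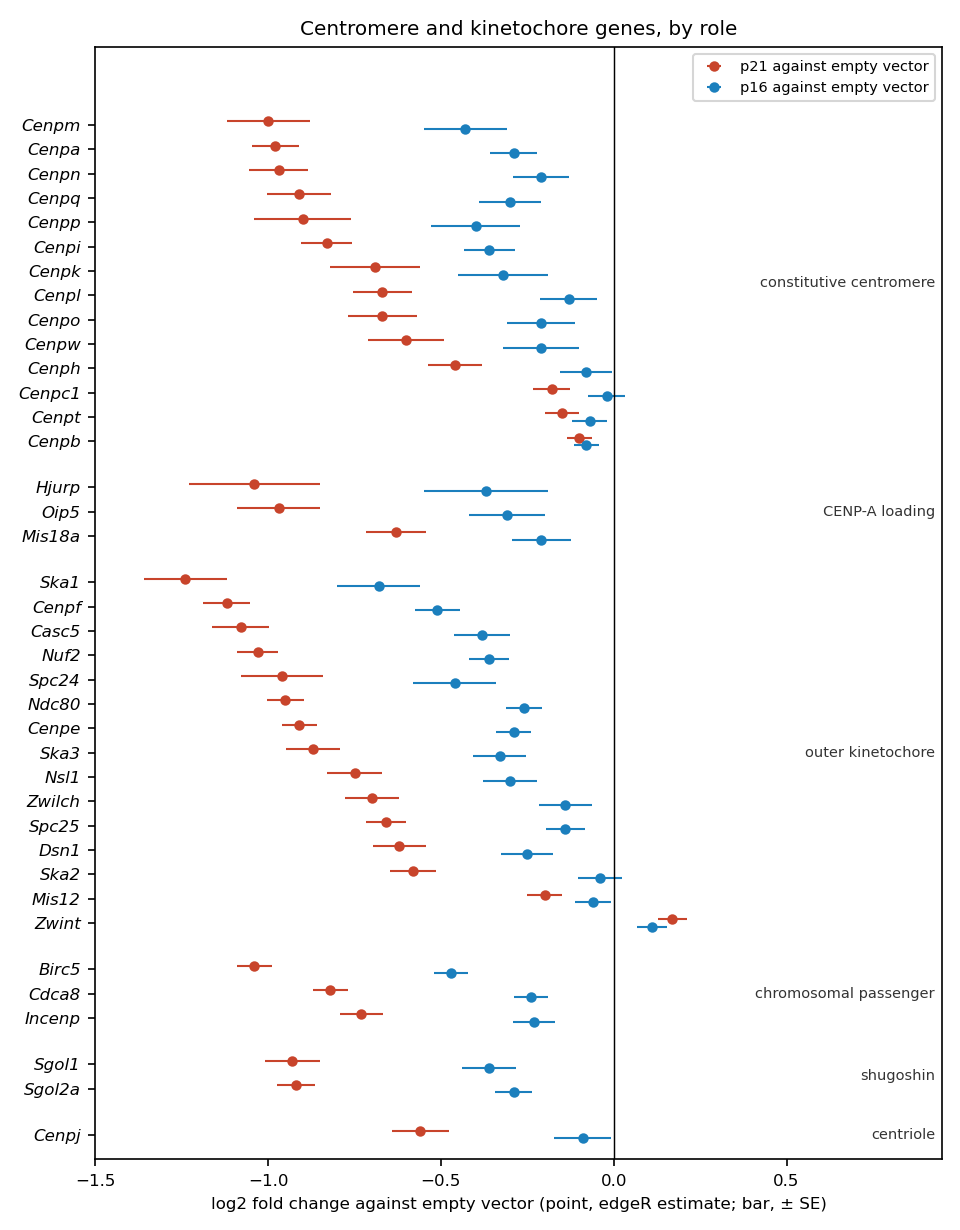
Log2 fold change of each of the 38 genes against the empty vector (horizontal axis), grouped by role, with p21 in red, p16 in blue and bars of ± 1 SE from edgeR. The p21 points run from -1.24 (Ska1) to 0.17 (Zwint) and the p16 points from -0.68 (Ska1) to 0.11 (Zwint).

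Promoters are shown because these genes moved together. RefSeq start sites in GRCm38.p6 were matched for 33 of the 38 genes, and Spc24, Nsl1, Zwilch, Ska1 and Incenp had no entry. Gene bounds in GENCODE begin further upstream for some genes, such as Cenpa (30666777, plus strand) and Cenpm (82244748, minus strand). Distances from the start therefore hold for the RefSeq start only. The stretch from 250 bases before to 50 after each start was searched on both strands for letters of elements known from cell-cycle promoters. These were the CHR core TTTGAA and its variant TTCGAA, which the DREAM and MuvB complexes bind, the CCAAT box CCAAT of NF-Y and the E2F core TTCCCGC. The core and the variant cannot match at the same place, and in Cenpw the CCAAT and CHR letters share a base. The 250 bases before the start follow for the 3 outer kinetochore genes (Cenpf, Casc5, Nuf2) and the 3 constitutive centromere genes (Cenpm, Cenpa, Cenpn) with an entry that fell furthest with p21. Zwint, the gene that rose, and Cenpb, the gene with the smallest change, were added after their values were seen. Each reads in the direction of transcription, with matches to any of the 4 motifs in capitals.
Cenpf, chr1:189688087-189688336, minus strand: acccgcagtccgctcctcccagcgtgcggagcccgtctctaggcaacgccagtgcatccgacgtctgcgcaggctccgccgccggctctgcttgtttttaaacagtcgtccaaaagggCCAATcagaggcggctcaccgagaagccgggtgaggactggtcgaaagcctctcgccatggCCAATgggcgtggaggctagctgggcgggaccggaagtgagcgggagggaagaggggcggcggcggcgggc
Casc5, chr2:119046869-119047118, plus strand: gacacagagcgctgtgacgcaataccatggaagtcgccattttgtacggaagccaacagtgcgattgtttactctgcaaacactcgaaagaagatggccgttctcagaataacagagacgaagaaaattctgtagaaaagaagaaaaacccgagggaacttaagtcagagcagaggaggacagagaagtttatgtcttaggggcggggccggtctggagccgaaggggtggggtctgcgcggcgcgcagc
Nuf2, chr1:169531465-169531714, minus strand: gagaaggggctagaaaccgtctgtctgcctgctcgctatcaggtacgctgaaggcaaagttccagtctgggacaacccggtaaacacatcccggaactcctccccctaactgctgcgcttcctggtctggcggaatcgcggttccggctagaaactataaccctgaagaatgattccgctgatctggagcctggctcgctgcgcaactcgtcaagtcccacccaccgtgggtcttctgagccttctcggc
Cenpm, chr15:82244337-82244586, minus strand: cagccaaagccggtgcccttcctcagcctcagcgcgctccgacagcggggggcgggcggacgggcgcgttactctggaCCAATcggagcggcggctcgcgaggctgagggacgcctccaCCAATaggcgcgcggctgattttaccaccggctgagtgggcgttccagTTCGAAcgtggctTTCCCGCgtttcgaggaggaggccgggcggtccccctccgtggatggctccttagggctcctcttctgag
Cenpa, chr5:30666636-30666885, plus strand: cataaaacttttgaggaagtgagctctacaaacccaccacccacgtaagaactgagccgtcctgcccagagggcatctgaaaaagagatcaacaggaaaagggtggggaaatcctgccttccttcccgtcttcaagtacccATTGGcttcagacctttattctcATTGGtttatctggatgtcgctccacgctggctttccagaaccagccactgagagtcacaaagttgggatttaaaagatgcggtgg
Cenpn, chr8:116921490-116921739, plus strand: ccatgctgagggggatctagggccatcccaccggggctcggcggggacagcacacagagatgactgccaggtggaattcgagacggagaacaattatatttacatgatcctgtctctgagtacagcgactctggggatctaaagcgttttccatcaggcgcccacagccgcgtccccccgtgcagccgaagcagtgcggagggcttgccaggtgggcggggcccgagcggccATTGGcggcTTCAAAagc
Zwint, chr10:72654596-72654845, plus strand: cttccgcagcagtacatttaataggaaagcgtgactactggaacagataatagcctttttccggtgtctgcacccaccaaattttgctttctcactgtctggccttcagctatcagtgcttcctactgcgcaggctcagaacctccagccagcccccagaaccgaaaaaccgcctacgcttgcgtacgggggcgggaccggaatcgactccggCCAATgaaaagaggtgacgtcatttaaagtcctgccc
Cenpb, chr2:131180068-131180317, minus strand: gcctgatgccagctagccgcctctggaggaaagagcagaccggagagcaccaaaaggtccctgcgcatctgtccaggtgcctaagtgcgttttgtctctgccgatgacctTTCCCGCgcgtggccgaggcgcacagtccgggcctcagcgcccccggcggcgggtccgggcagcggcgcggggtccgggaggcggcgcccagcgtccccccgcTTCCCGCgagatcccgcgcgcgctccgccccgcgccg

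Cenpf, Cenpm and Cenpa each carried a pair of CCAAT boxes in this stretch, on the other strand in Cenpa, and Cenpm also held the CHR variant and the E2F core. Casc5 and Nuf2 held none of the 4 motifs there, although the CHR core of Casc5 lay after its start. Cenpb held the E2F core at 2 places, and Zwint held 1 CCAAT box upstream of its start. Across the 33 genes the CHR core or variant was found in 15 (45.5%), against 16% of 10565 tested genes with an entry and 21.7% of all 27025 genes with one. The CCAAT box was found in 21 of 33 (63.6%, against 42.7% and 41.1%) and the E2F core in 10 of 33 (30.3%, against 9.65% and 5.29%). A match describes letters only and is not a measured site.

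The CHR letters mostly sat close to the RefSeq start. Within 30 bases before to 50 bases after it, 12 of 33 genes held the core or the variant (36.4%), against 3.4% of tested genes and 4.79% of all genes with an entry. No record shows that this window was set before the positions in these genes were seen, so the contrast may be too large. Over the whole stretch searched the shares were 45.5% of the 33 and 16% of tested genes. The first letter of these 12 lay between positions -25 and 34, counted from 1 at the start site. The 30 bases around 11 of them are shown because they place the same letters side by side, with the CHR letters in capitals, as TTCAAA where they read on the other strand.
Cenpa, chr5:30666890-30666919, plus strand: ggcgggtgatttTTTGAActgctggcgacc
Cenpf, chr1:189688067-189688096, minus strand: ggcggcgggcagTTTGAAtcgctcgtgctg
Cenpn, chr8:116921719-116921748, plus strand: gccattggcggcTTCAAAagcacctcggcg
Cenpw, chr10:30200548-30200577, minus strand: tccggcggccaaTTCAAAtcgaccactcgg
Ndc80, chr17:71526811-71526840, minus strand: gaaactttaaaaTTCAAAccgccttgggtt
Spc25, chr2:69206172-69206201, minus strand: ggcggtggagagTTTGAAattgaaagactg
Casc5, chr2:119047138-119047167, plus strand: agggcggttagaTTTGAAtacttcagggac
Ska3, chr14:57826160-57826189, minus strand: gcctgcgcaggaTTCAAAtgtgtagcgcgt
Oip5, chr2:119618456-119618485, minus strand: aagaggcgcgcgcTTCAAAgaaatatggcg
Hjurp, chr1:88277543-88277572, minus strand: tgcgtaaatactTTTGAAagaccctattag
Sgol1, chr17:53689271-53689300, minus strand: gtaacgcagaatTTCGAAtgtggcggcggt

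By role, these near-start CHR letters occurred in 3 of 14 constitutive centromere genes, 5 of 11 outer kinetochore genes, 2 of 3 CENP-A loading genes, 1 of 2 passenger genes and 1 of 2 shugoshins. The E2F core was found in 8 of 14 constitutive centromere promoters and in 1 of 11 outer kinetochore promoters. The CCAAT box was found in 10 of 14 and 6 of 11. Cenpb, Cenpt, Cenpc1, Mis12 and Zwint were picked as a set after seeing that their log2 fold change with p21 was above -0.25. Of these, 0 of 5 held CHR letters, while 3 held the CCAAT box and 2 the E2F core. Among the other 28 genes with an entry, 15 (53.6%) held CHR letters. That split followed the fold changes, so the 16% of tested genes compares only with the 45.5% over all 33. Genes without CHR letters also fell, such as Birc5 (-1.04), Nuf2 (-1.03), Cenpe (-0.91) and Cenpq (-0.91). Birc5 and Nuf2 held no match to any of the motifs searched. A link between letters and fall was not tested.

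**Figure D2:**
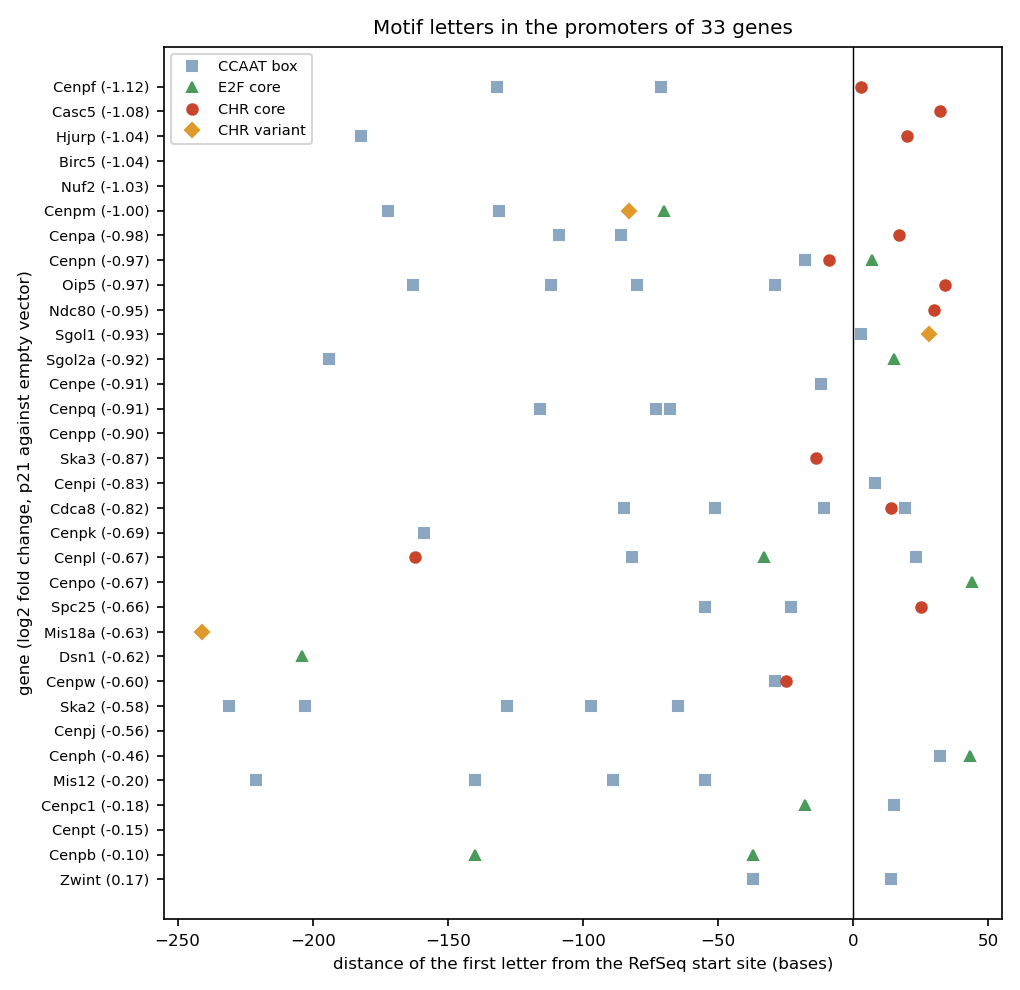
Distance in bases of each motif's first letter from the RefSeq start site (horizontal axis) in 33 genes, ordered from the largest fall with p21 at the top to Zwint at the bottom; the first entry is drawn where a gene has several. Of the 15 genes with CHR letters (red circles, orange diamonds), 12 have them between -25 and 34. The 5 genes at the bottom have none, nor do some genes that fell far, such as Birc5, Nuf2, Cenpe and Cenpq.

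Among the 14 constitutive centromere genes, all 14 fell with p21, 4 fell with p16 and 10 were lower with p21 than with p16. Their median log2 fold changes were -0.68, -0.21 and -0.46. The range with p21 was wide, from -1.0 for Cenpm to -0.10 for Cenpb.

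Cenpa encodes CENP-A itself and lies on chromosome 5 (30666777 to 30674830, GRCm38). It stood at 55.9, 58.4 and 52.8 CPM in the controls, 45.8, 45.4 and 45.5 CPM with p16 and 25, 28.6 and 31.2 CPM with p21. The 3 groups did not overlap, and p21 held 50.7% of the control level (log2 fold change -0.98 ± 0.068 SE, edgeR adjusted p = 5.43e-07). The p16 difference was -0.29 ± 0.067 (edgeR adjusted p = 0.017).

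Cenpn and Cenpl encode a pair that reads CENP-A nucleosomes. Cenpn (chromosome 8, 116921730 to 116941507) stood at 17.5, 18.2 and 17.9 CPM in the controls, 15, 16 and 15.5 CPM with p16 and 7.97, 9.14 and 10.4 CPM with p21. It fell by 0.97 on the log2 scale with p21 (SE 0.085, edgeR adjusted p = 3.14e-06). Its p16 libraries lay below all controls, as held for 16.6% of all tested genes. The test with p16 was not passed (-0.21 ± 0.082, edgeR adjusted p = 0.128, and 0.034 with the replicate block). Cenpl changed by -0.67 with p21 and by -0.13 with p16, the latter without a call.

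Cenph, Cenpi, Cenpk and Cenpm encode subunits of 1 module of the constitutive complex. Cenpi (chromosome X, 134308084 to 134362639) stood at 23.9, 23.7 and 22 CPM in the controls, 18.7, 19.4 and 16.2 CPM with p16 and 12.5, 12.8 and 13.9 CPM with p21, with no overlap between groups. Its log2 fold change was -0.83 ± 0.074 with p21 (edgeR adjusted p = 3.89e-06) and -0.36 ± 0.073 with p16 (edgeR adjusted p = 0.00866). Cenpm stood at 5.97, 8.04 and 7.52 CPM in the controls, 5.78, 5.12 and 5.09 CPM with p16 and 3.49, 3.67 and 3.65 CPM with p21. It changed by -1.0 ± 0.12 with p21 and by -0.43 ± 0.12 with p16 (edgeR adjusted p = 0.0352). Cenpk (-0.69 with p21) and Cenph (-0.46) fell by less.

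Cenpo, Cenpp and Cenpq encode subunits of a further module. Cenpq (chromosome 17, 40923051 to 40935047) stood at 11.7, 10.9 and 10.7 CPM in the controls, 8.88, 9.49 and 8.6 CPM with p16 and 5.64, 6.71 and 5.49 CPM with p21. The log2 fold change was -0.91 ± 0.092 with p21 (edgeR adjusted p = 1.07e-05) and -0.30 ± 0.089 with p16 (edgeR adjusted p = 0.0463). Cenpp changed by -0.90 ± 0.14 with p21 and Cenpo by -0.67 ± 0.10. Of their exon bases, 12.6% and 22.5% are shared with genes on the opposite strand, whose reads the counts may not separate.

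Cenpb, Cenpc1 and Cenpt changed little. Cenpb encodes the protein that binds a short DNA box in satellite repeats and was the most abundant of the 38 per length, at 40.4 CPM per kb of exon in the controls. It stood at 202, 196 and 193 CPM in the controls, 188, 181 and 189 CPM with p16 and 192, 178 and 182 CPM with p21. All p21 libraries lay below all controls, as held for 25% of all tested genes. The log2 fold change was -0.10 ± 0.036 (edgeR adjusted p = 0.0451). Cenpc1 encodes CENP-C, which links CENP-A chromatin to the MIS12 complex, and stood at 32.3, 28.9 and 31.5 CPM in the controls, 30.3, 29.8 and 31.3 CPM with p16 and 26.5, 26.4 and 28.8 CPM with p21. Its log2 fold change with p21 was -0.18 ± 0.054 (edgeR adjusted p = 0.0173), and its p16 libraries lay within the control range. Cenpt encodes the other link to the outer kinetochore and stood at 33.4, 36.6 and 35 CPM in the controls, 33.8, 31.9 and 34.1 CPM with p16 and 30.4, 33.1 and 31.4 CPM with p21. It changed by -0.15 ± 0.050 with p21 (edgeR adjusted p = 0.0346), while its partner gene Cenpw changed by -0.60 ± 0.11.

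These 3 calls with p21 were the ones that alternatives ended. The adjusted p of Cenpb ran from 0.00436 to 0.169 over the alternatives and passed 0.05 without control replicate 1 (0.169) or 2 (0.0928), p21 replicate 2 (0.146) or 3 (0.0832), or p16 replicate 1 (0.0666) or 2 (0.0608). DESeq2 (0.0532), its size factors (0.0529), no filter (0.0648), only the 2 groups compared (0.0764) and replicates 1 and 2 alone (0.0724) also ended it. That of Cenpc1 ran from 0.00413 to 0.0783 and passed 0.05 without control replicate 1 (0.0783) or 3 (0.0608) or p21 replicate 1 (0.0676) or 2 (0.0556). That of Cenpt ran from 0.00942 to 0.146 and passed 0.05 without control replicate 2 (0.146) or 3 (0.0868) or p21 replicate 1 (0.129) or 3 (0.0828), with only the 2 groups compared (0.0516) and with replicates 1 and 2 alone (0.103).

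The genes that load new CENP-A fell with p21 in 3 of 3 cases and in 0 of 3 with p16. Hjurp encodes the CENP-A chaperone (chromosome 1, 88262471 to 88277633) and was the least abundant of the 38 per length, at 0.282 CPM per kb in the controls. It stood at 2.47, 1.96 and 2.63 CPM in the controls, 1.93, 1.88 and 1.63 CPM with p16 and 1.01, 1.34 and 1.08 CPM with p21. Its log2 fold change with p21 was -1.04 ± 0.19 (edgeR adjusted p = 7.63e-04). Oip5 and Mis18a encode the Mis18 proteins that prime centromeres for loading. Oip5 stood at 5.07, 5.16 and 5.04 CPM in the controls, 3.84, 4.26 and 4.18 CPM with p16 and 2.43, 2.43 and 2.92 CPM with p21, a change with p21 of -0.97 ± 0.12 (edgeR adjusted p = 3.71e-05). Mis18a stood at 13.6, 12.6 and 13.8 CPM in the controls, 10.6, 12.3 and 11.6 CPM with p16 and 8.27, 8.05 and 9.55 CPM with p21, a change of -0.63 ± 0.087 (edgeR adjusted p = 1.17e-04). In each of the 3 genes every p16 library lay below every control, with log2 fold changes of -0.37, -0.31 and -0.21 that did not pass the edgeR test (adjusted p = 0.206, 0.0892 and 0.131). The same separation was found for 16.6% of all tested genes. With the replicate block Oip5 passed (edgeR adjusted p = 0.0487).

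Of the 15 outer kinetochore genes, 14 fell and 1 rose with p21, 10 fell with p16 and 13 were lower with p21 than with p16. Their median log2 fold changes were -0.87, -0.29 and -0.54. The NDC80 complex, the microtubule grip, fell in all 4 subunits with p21. Ndc80 (chromosome 17, 71496100 to 71526857) stood at 30.1, 31.6 and 32.9 CPM in the controls, 25.6, 27.2 and 26.1 CPM with p16 and 15.6, 17 and 16.5 CPM with p21. The groups did not overlap, with log2 fold changes of -0.95 ± 0.053 with p21 (edgeR adjusted p = 1.08e-07) and -0.26 ± 0.051 with p16 (edgeR adjusted p = 0.00739).

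Nuf2, the partner of Ndc80 (chromosome 1, 169497934 to 169531464), stood at 46.2, 45.6 and 43.1 CPM in the controls, 35.4, 37.1 and 32.6 CPM with p16 and 20.8, 21.6 and 23.5 CPM with p21. It changed by -1.03 ± 0.059 with p21 (edgeR adjusted p = 1.18e-07) and by -0.36 ± 0.058 with p16 (edgeR adjusted p = 0.00248). Spc24 and Spc25 encode the subunits that anchor the complex on the inner kinetochore. Spc24 changed by -0.96 ± 0.12 with p21 and -0.46 ± 0.12 with p16. Spc25 changed by -0.66 ± 0.058 with p21, and its -0.14 with p16 did not pass (edgeR adjusted p = 0.134). Per kb of exon the 4 subunit genes stood within 4.85 to 7.95 CPM in the controls and 2.52 to 5.04 CPM with p21. Spc25 was the highest of the 4 in both groups.

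The MIS12 and KNL1 complexes bridge the NDC80 complex to the constitutive centromere. Casc5, which encodes KNL1, the scaffold for checkpoint proteins, changed by -1.08 ± 0.083 with p21 and by -0.38 ± 0.081 with p16. Nsl1 (-0.75 ± 0.079 with p21) and Dsn1 (-0.62 ± 0.076) encode MIS12 subunits and fell with both vectors, Dsn1 with p16 close to the threshold (edgeR adjusted p = 0.0496). That call of Dsn1 was lost in 10 of the 18 alternatives, among them DESeq2 size factors (0.0509), no filter (0.0519) and only the 2 groups compared (0.0585). Mis12 itself stood at 43.5, 39.7 and 38.9 CPM in the controls, 39.4, 39.9 and 37.9 CPM with p16 and 33.9, 35.6 and 36.5 CPM with p21. Its log2 fold change with p21 was -0.20 ± 0.051 (edgeR adjusted p = 0.00684, and 0.00179 to 0.0294 over the alternatives). Its p16 libraries overlapped the controls.

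Zwint, which encodes a partner of KNL1 (chromosome 10, 72654845 to 72674964), was the gene that rose. It stood at 113, 112 and 114 CPM in the controls, 125, 122 and 118 CPM with p16 and 123, 122 and 135 CPM with p21. Every p21 library and every p16 library lay above every control, as held for 24.2% and 16.1% of all tested genes. The log2 fold change with p21 was 0.17 ± 0.043 (edgeR adjusted p = 0.0081, and 0.0011 to 0.0406 over the alternatives). With p16 it was 0.11 ± 0.043 and did not pass (edgeR adjusted p = 0.143, and 0.0451 to 0.363 over the alternatives, the lowest without p21 replicate 3). The difference between p21 and p16 was 0.06 ± 0.043 (edgeR adjusted p = 0.381), with overlapping libraries.

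Cenpe and Cenpf encode large proteins of the outer corona of the kinetochore, Cenpe a kinesin motor. Cenpe (chromosome 3, 135212537 to 135273611) stood at 106, 97.9 and 95.1 CPM in the controls, 84.1, 83.1 and 77.9 CPM with p16 and 51.4, 53.3 and 54.3 CPM with p21. It changed by -0.91 ± 0.051 with p21 (edgeR adjusted p = 9.99e-08) and by -0.29 ± 0.050 with p16 (edgeR adjusted p = 0.0038). Cenpf (chromosome 1, 189640606 to 189688086) stood at 52.8, 49.2 and 53 CPM in the controls, 38.7, 37 and 33.4 CPM with p16 and 21.7, 23.9 and 25.6 CPM with p21. It changed by -1.12 ± 0.068 with p21 (edgeR adjusted p = 1.8e-07) and by -0.51 ± 0.066 with p16 (edgeR adjusted p = 8.09e-04). Neither gene had overlapping groups.

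The SKA complex helps the NDC80 complex stay on shortening microtubules. Ska1 had the most negative estimate of the 38 in both comparisons, -1.24 ± 0.12 with p21 and -0.68 ± 0.12 with p16. It stood at 7.72, 8.06 and 8.33 CPM in the controls, 5.76, 5.01 and 4.24 CPM with p16 and 3.1, 3.47 and 3.65 CPM with p21. Ska3 changed by -0.87 ± 0.078 with p21 and by -0.33 ± 0.076 with p16. Ska2 changed by -0.58 ± 0.066 with p21, and by -0.04 ± 0.064 with p16 without a call (edgeR adjusted p = 0.787). Zwilch, a subunit of the RZZ complex that brings dynein to kinetochores, changed by -0.70 ± 0.079 with p21, and its -0.14 with p16 did not pass (edgeR adjusted p = 0.28).

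**Figure D3:**
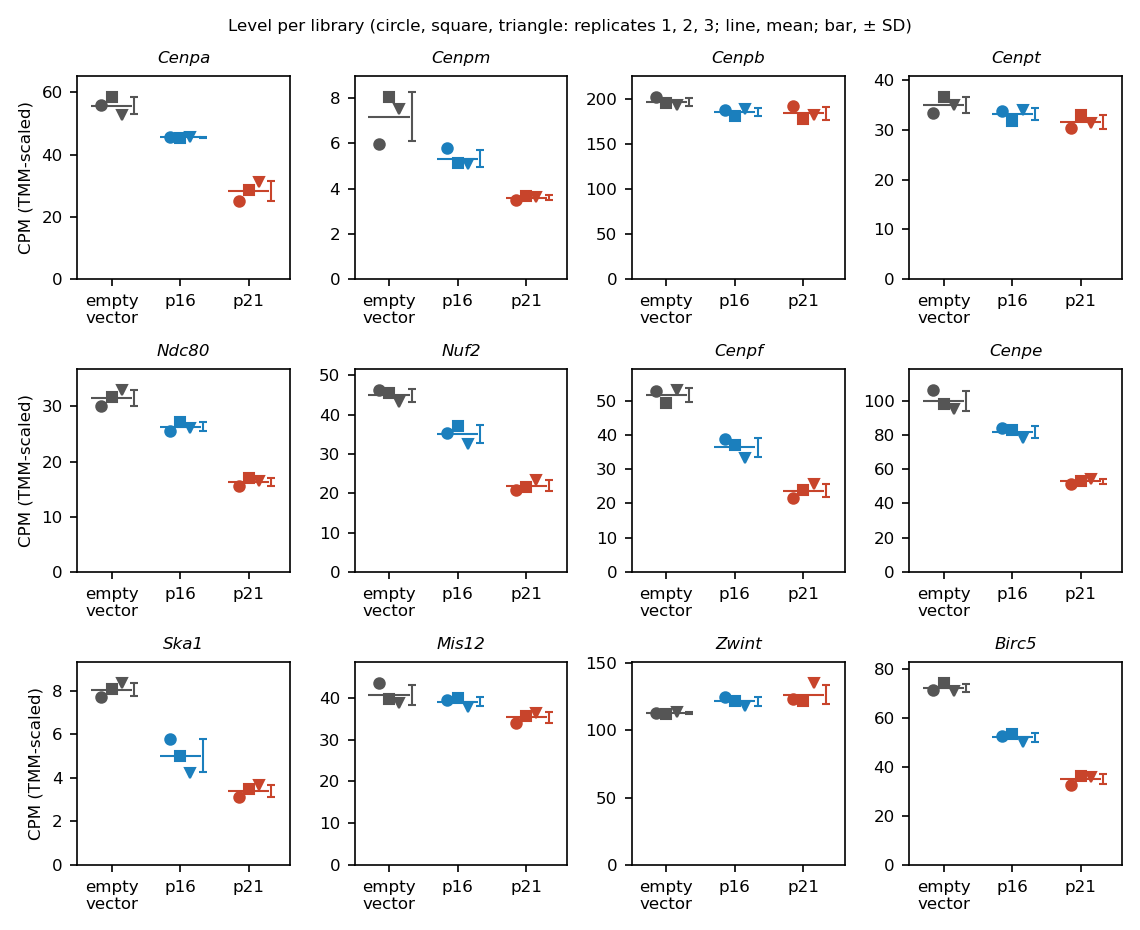
CPM on TMM-scaled totals (vertical axes, from 0) of 12 genes in each of the 9 libraries, with replicates 1, 2 and 3 as circle, square and triangle, the group mean as a line and ± 1 SD as a bar. Cenpb, Cenpt, Mis12 and Zwint show the smallest steps between groups, while in the other 8 the p16 means lie under the controls and the p21 means lower still.

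The chromosomal passenger genes fell with both vectors in 3 of 3 cases. Birc5 encodes survivin, which brings the complex to centromeres (chromosome 11, 117849251 to 117855743), and stood at 71.6, 74.3 and 71 CPM in the controls, 52.9, 53.6 and 50.1 CPM with p16 and 32.9, 36.5 and 36.1 CPM with p21. It changed by -1.04 ± 0.050 with p21 (edgeR adjusted p = 3.56e-08) and by -0.47 ± 0.049 with p16 (edgeR adjusted p = 2.73e-04). Cdca8, which encodes borealin, stood at 57.6, 58.3 and 56.5 CPM in the controls, 50.7, 50.1 and 44.9 CPM with p16 and 31.5, 33.4 and 32.7 CPM with p21. Its changes were -0.82 ± 0.051 with p21 (edgeR adjusted p = 2.22e-07) and -0.24 ± 0.050 with p16 (edgeR adjusted p = 0.00967). Incenp, the scaffold of the complex, stood at 77.9, 79.3 and 74.4 CPM in the controls, 66.6, 65.5 and 65.2 CPM with p16 and 41.5, 50.5 and 47.6 CPM with p21. Its changes were -0.73 ± 0.062 with p21 (edgeR adjusted p = 2.48e-06) and -0.23 ± 0.061 with p16 (edgeR adjusted p = 0.0307).

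Both shugoshin genes fell with both vectors. Sgol1 (chromosome 17, 53674786 to 53689333) stood at 25.6, 22.4 and 24.7 CPM in the controls, 17.9, 18.4 and 20.1 CPM with p16 and 11.7, 14.2 and 12.2 CPM with p21. It changed by -0.93 ± 0.080 with p21 (edgeR adjusted p = 2.63e-06) and by -0.36 ± 0.078 with p16 (edgeR adjusted p = 0.0113). Sgol2a stood at 30.2, 29.8 and 29 CPM in the controls, 24.1, 24.8 and 24.2 CPM with p16 and 14.6, 15.4 and 16.9 CPM with p21. It changed by -0.92 ± 0.055 with p21 (edgeR adjusted p = 1.62e-07) and by -0.29 ± 0.054 with p16 (edgeR adjusted p = 0.00573), and 35% of its exon bases are shared with Kctd18 on the opposite strand. Cenpj carries a CENP name but encodes a centriole protein. It stood at 13.2, 13.2 and 12.2 CPM in the controls, 11.6, 11.7 and 12.9 CPM with p16 and 7.9, 9.55 and 8.74 CPM with p21. It changed by -0.56 ± 0.083 with p21 (edgeR adjusted p = 2.05e-04), and its p16 libraries overlapped the controls (-0.09, edgeR adjusted p = 0.54).

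The constitutive centromere and the outer kinetochore were then compared with each other, as a description with no test, since the genes share the same libraries. With p21 the outer median was lower than the constitutive median by -0.19 on the log2 scale (-0.87 against -0.68), with p16 by -0.08 and in p21 against p16 by -0.08. The spreads overlapped: with p21 the middle of the outer genes ran from -1.0 to -0.64 (lower to upper quartile) and that of the constitutive genes from -0.90 to -0.50. Both roles held genes near no change, Cenpb, Cenpc1 and Cenpt in one and Mis12 and Zwint in the other. Both also held genes near -1.0, Cenpm and Cenpa against Nuf2 and Spc24. Further down lay outer genes only, Ska1 (-1.24), Cenpf (-1.12) and Casc5 (-1.08). Without control replicate 1 or p21 replicate 3 the -0.19 shrank to -0.10 and -0.08, without control replicate 2 or p21 replicate 2 it was -0.26, and with replicates 1 and 2 alone it was -0.04.

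The same comparison by library used the mean log2 CPM over the genes of each role. The outer minus the constitutive mean was 0.83, 0.73 and 0.79 in the controls, 0.74, 0.74 and 0.72 with p16 and 0.66, 0.67 and 0.67 with p21. Every p21 library lay below every control, and the p16 libraries overlapped the controls. Each role's own mean moved much further, from 4.83 to 4.07 for the outer genes and from 4.05 to 3.4 for the constitutive genes between the controls and p21. Per kb of exon, the median level was 6.47 CPM for the outer and 4.35 CPM for the constitutive genes in the controls, and 3.47 and 2.29 CPM with p21.

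**Figure D4:**
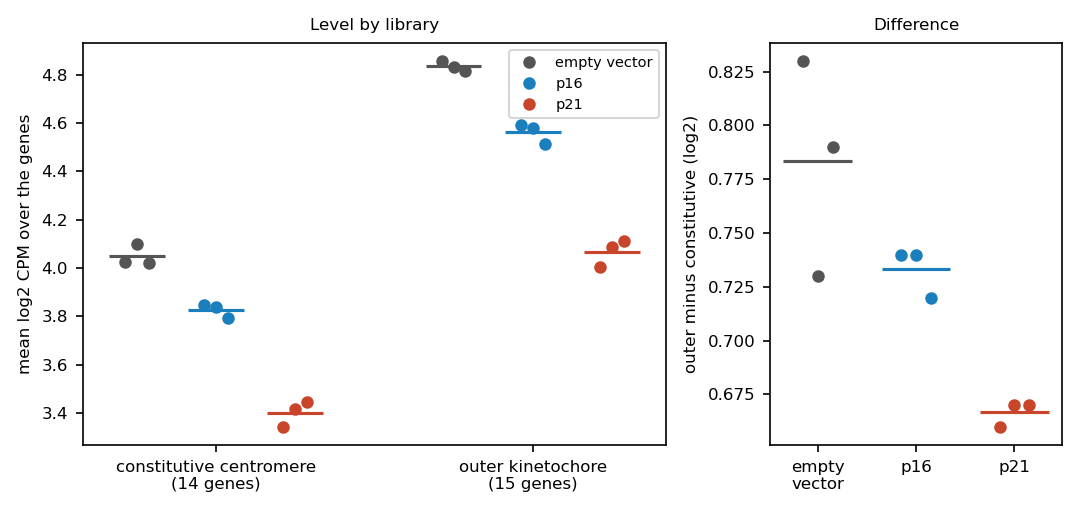
Left, mean log2 CPM over the 14 constitutive centromere and 15 outer kinetochore genes in each library (points) with group means (lines). Right, the outer minus the constitutive mean on an axis that does not start at 0, which lies at 0.73 to 0.83 in the controls, 0.72 to 0.74 with p16 and 0.66 to 0.67 with p21.

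Other genes of the kinetochore and its checkpoint, a list of 25 drawn from knowledge of the pathway, moved alike. This list and the S phase list below were drawn up with earlier results of these data known. With p21, 21 fell and 2 rose, with p16 15 fell and 0 rose, and 16 were lower with p21 than with p16. The medians were -0.79, -0.27 and -0.50. The checkpoint kinase gene Bub1b (-0.96 ± 0.045), the passenger kinase gene Aurkb (-1.06 ± 0.051) and the mitotic kinase gene Plk1 (-0.92 ± 0.047) had the smallest p with p21. Ndel1 (0.19 ± 0.034) and Clasp1 (0.11 ± 0.034), which act on dynein and on microtubule plus ends, were the genes that rose. Beside these, 24 S phase and DNA replication genes fell with p21 in 24 of 24 cases and with p16 in 19, with medians of -0.40 and -0.25, and 11 were lower with p21 than with p16 (median -0.18).

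The calls with p21 held more widely than those with p16. Over the 18 alternatives, 35 of the 38 kept their p21 call in each, 27 of the 32 their call in p21 against p16, and 9 of the 19 their p16 call. The p16 count was 11 without control replicate 1 or without p16 replicate 2, and 12 without control replicate 2 or without p16 replicate 3. With replicates 1 and 2 alone, chosen after seeing that replicate 3 stood apart, 35 fell with p21, 17 with p16 and 32 were lower with p21 than with p16. With the replicate block 22 fell with p16, adding Cenpn, Cenpp and Oip5, and 35 were lower with p21 than with p16, adding Cenpc1, Cenpk and Mis12.

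The p16 calls lost without 1 library were spread over the roles. Cenpq and Dsn1 lost theirs without each of the p16 replicates, control replicates 1 and 2 and p21 replicate 1, Cenpq also without control replicate 3 and Dsn1 without p21 replicate 2 (highest edgeR adjusted p = 0.157 and 0.177). Incenp lost it with any p16 replicate, or control replicate 1 or 2, left out (at most 0.104), and Nsl1 without replicate 1 or 2 of either group (at most 0.113). Cenpm and Spc24 lost it without replicate 2 or 3 of either group (at most 0.143 and 0.0999). Cenpa lost it with control replicate 1 or 2, or p16 replicate 2 or 3, left out (at most 0.0665), Ska3 without control replicate 1 or p16 replicate 2 or 3 (at most 0.0715), Sgol1 without control replicate 1 or p16 replicate 2 (at most 0.0557) and Casc5 without control replicate 1 (0.0542). Cenpp, not called with p16, passed without p16 replicate 2 (edgeR adjusted p = 0.0201).

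In p21 against p16, the calls of Cenpp, Cenpw, Hjurp, Ska1 and Spc24 were lost without 1 library. Ska1 lost it without replicate 1 of p21 or p16 (at most 0.0534) and Spc24 without these or p16 replicate 2 (at most 0.0762). Hjurp lost it without p21 replicate 1 or 3 or p16 replicate 1 or 2 (edgeR adjusted p at most 0.126). Cenpw lost it without p21 replicate 1 or 3 or any p16 replicate, and Cenpp without any p21 replicate or p16 replicate 1 or 2 (both at most 0.125). Cenpc1 and Cenpk passed without p21 replicate 3 (edgeR adjusted p = 0.0353 and 0.0459).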

How the data were processed

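RNA-seq of 9 MEF libraries was deposited as 1 table of raw read counts per gene symbol, with no further normalization in the deposited counts. Per the submitters' processing notes, the tools were TopHat2 2.0.14, Bowtie2 2.2.6 and featureCounts 1.4.6 of Subread, with mm10. The annotation and strand setting are not given in the sources used here, and the library kit, per the labels, does not mark strand. Library totals ran from 44455730 to 63152239 counts, and genes with few counts have the larger SE.

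The model was edgeR 4.0.16 (R 4.3.3), with filterByExpr (minimum count 10, minimum total 15), TMM scaling and 1 quasi-likelihood fit by group over the 9 libraries, with 6 residual degrees of freedom. Tests were two-sided, adjusted by Benjamini-Hochberg over 14223 genes, with a threshold of 0.05. Each SE was derived from the fold change and its F statistic. The fit was tested on simulated data. Exon lengths and positions came from GENCODE M21 (GRCm38), and promoters from RefSeq (GRCm38.p6). Each length joins the exons of all annotated transcripts of a gene and may exceed that of the RNA made, so levels per kb are approximate. The window of 1 gene is not reported here. Log2 CPM used a prior count of 2. Figures used Python 3.11.15 and matplotlib 3.10.9.

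The members and lists were chosen with earlier results of these data known. The naming rule gives every library's value for up to 4 genes of each role with the smallest p with p21 and for any gene that rose or did not pass, and up to 3 other pathway genes. Cenpb, Cenpc1, Cenpt, Mis12, Cenpm and Ska1 were added after their values were seen.

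Alternatives were DESeq2 size factors, library totals, no delivered genes, no filter, DESeq2 1.42.0, limma-voom (limma 3.58.1), only the 2 groups compared, the replicate block and each library left out. The replicate numbers pair the samples: deviations from group means correlated across genes at r = 0.126 to 0.361 between same-numbered libraries of different groups, and at -0.246 to 0.106 between the others. A chi-squared test between libraries of a group gave 5.26 to 16.8 per degree of freedom, so none was counted as a duplicate.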

Additional observations from a re-analysis of the deposited data

How the results depend on the processing

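Over all genes the calls as reported were 5681 with p21, 1616 with p16 and 1858 in p21 against p16. With the replicate block, which follows the pairing by number, the latter counts were 3044 and 3214, while 6856 genes passed with p21. Leaving out each library in turn gave 4617 to 5659, 759 to 1894 and 1074 to 1810. Among the 38 genes it gave 35 to 37 lower with p21, 11 to 19 lower with p16, 27 to 32 lower in p21 against p16, and 0 to 1 higher with p16. The outer minus the constitutive median ran from -0.26 to -0.08 with p21, from -0.11 to -0.03 with p16 and from -0.16 to -0.05 in p21 against p16. With replicates 1 and 2 alone, an alternative chosen after seeing the data, it was -0.04 with p21 and -0.01 in p21 against p16, and 1 of the 38, Zwint, was higher with p16. The cause was not tested. Scaling by library totals called 37 of the 38 lower with p21 and 20 with p16, Cenpb being the addition, and moved the split of all calls with p21 from 2816 higher and 2865 lower to 2173 and 3734, with p16 from 825 and 791 to 617 and 1235, and in p21 against p16 from 875 and 983 to 735 and 1254. The sign turned for 3 genes without a call: Cenpc1 with p16 (0.01 without control replicate 1, and -0.07 to 0.01 over the libraries left out), Cenpb in p21 against p16 (0.01 without p21 replicate 2 and 0.00 with replicates 1 and 2 alone) and Zwint in p21 against p16 (-0.01 with replicates 1 and 2 alone). Of the other values of single genes, 1941 stayed on their side of the threshold, 90 lost a call and 17 gained one. DESeq2 called 36 of the 38 lower with p21, 20 with p16 and 32 in p21 against p16, and limma-voom 37, 19 and 32.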
